A study of Homo sapiens with 8 samples.

Results

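The regions described here were the variable open sites that lay away from promoters but within reach of a gene in U2OS, a human osteosarcoma cell line. They were selected on whether a peak was called: overlapping peaks of 8 FAIRE-seq peak lists were joined (by 1 bp or more, chromosomes 1 to 22 and X), and a region was kept when 2 to 7 of the lists held a peak, when it was under 2000 bp long, and when the nearest annotated transcription start site of any gene type lay more than 1 kb and at most 50 kb away. Of 52105 joined regions, 20278 had a peak in 2 to 7 lists, and 11350 met every condition (21.8% of all regions and 56.0% of those in 2 to 7 lists). These 11350 are called variable distal sites below. The others in 2 to 7 lists were within 1 kb of a start site (7480), farther than 50 kb (1422) or 2000 bp or longer (26). A further 1163 regions met the same length and distance conditions with a peak in all 8 lists and are called constant distal sites. Members just inside and outside the limits lay 1001 bp (nearest gene NIPA2) and 1000 bp (FMN1) from a start site at the near end, and 49896 bp (ENSG00000216781) and 50007 bp (SDK1) at the far end. The longest member was 1990 bp (nearest gene MIR4648) and the shortest region left out for length was 2383 bp (IGKV2D-40).

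The study asked whether ZBTB48, a zinc finger protein that binds telomeric TTAGGG repeats and activates some promoters, opens chromatin. Each library came from 1 clone of U2OS: the WT clones WT_4 and WT_5 carry no targeted change, and the clones KO_C5 and KO_D2 are ZBTB48 knockouts. Each clone gave 1 untreated library and 1 library after interferon-γ (IFNγ, 250 U/ml). The labels give the exposure as 24 h, while the study's account of the FAIRE-seq experiment gives a longer one, so the duration behind these libraries is uncertain. Each genotype is therefore represented by 2 clones, and any difference between single clones that has nothing to do with ZBTB48 cannot be told apart from it. The peak lists offered no check of the knockout itself, since the ZBTB48 promoter had a peak in all 8 libraries. Promoters of the mesenchymal genes set as markers of this cell type had a peak for 6 of 7 genes in at least 1 library (3 in all 8), against 1 of 5 B cell genes, 0 of 3 liver genes and 3 of 3 neuronal genes (2 in all 8), so the neuronal set did not separate cell types here.

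FAIRE enriches DNA that formaldehyde does not hold to nucleosomes, so a peak marks a stretch of open chromatin. Open sites away from promoters include enhancers, where sequence-specific factors bind and act on genes at a distance, and insulator sites bound by CTCF. In mesenchymal cells, enhancers often carry sites for AP-1 (dimers of FOS and JUN proteins), for TEAD factors, which act with YAP and TAZ, and for RUNX factors, which direct bone cell genes. IFNγ activates the kinases JAK1 and JAK2, and the response acts through GAS elements and through IRF1, which binds the related ISRE. A site without a called peak is not necessarily closed, since a peak is only listed where it passes the caller's threshold, and in a population a site open in few cells and a site weakly open in many cannot be told apart.

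Windows of 201 bp around the centres of members that carry the patterns described below are given here, on the forward strand of GRCh38. The first 3 are the members with the highest mean rank among those with a peak in 7 libraries, and the next 3 those among members with a peak in all 4 IFNγ libraries and no untreated one. The remaining 4 were chosen after their values were seen: a WT-only member with a telomeric hexamer, a member gained in both KO clones with AP-1 and TEAD words side by side, and a pair near SOCS3 with a GAS word. Capitals mark matches on either strand to the words AP-1 (TGANTCA), TEAD (GGAATG), RUNX (TGTGGT), GAS (TTCNNNGAA), ISRE (GAAANNGAA), the telomere hexamer (TTAGGG), SP/KLF (GGGCGG), ETS (CCGGAAG), NF-Y (CCAAT) or C/EBP (TTNCNNAA).
PDGFA-DT (peak in 7 libraries, chr7:538309-538509): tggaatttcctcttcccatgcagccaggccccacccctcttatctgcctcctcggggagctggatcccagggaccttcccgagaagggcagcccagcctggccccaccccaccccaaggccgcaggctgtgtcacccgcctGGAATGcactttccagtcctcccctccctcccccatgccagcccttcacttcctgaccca
LINC01629 (peak in 7 libraries, chr14:76961865-76962065): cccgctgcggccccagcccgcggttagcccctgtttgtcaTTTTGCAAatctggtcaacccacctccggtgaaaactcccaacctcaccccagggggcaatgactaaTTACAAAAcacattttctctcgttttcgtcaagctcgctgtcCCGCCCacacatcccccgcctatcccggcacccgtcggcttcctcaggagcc
GIP (peak in 7 libraries, chr17:48972439-48972639): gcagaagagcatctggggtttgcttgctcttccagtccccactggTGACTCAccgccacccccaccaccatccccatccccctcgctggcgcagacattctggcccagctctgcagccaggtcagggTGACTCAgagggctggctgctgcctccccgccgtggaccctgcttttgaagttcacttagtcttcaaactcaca
LAT2 (IFNγ-only, chr7:74206637-74206837): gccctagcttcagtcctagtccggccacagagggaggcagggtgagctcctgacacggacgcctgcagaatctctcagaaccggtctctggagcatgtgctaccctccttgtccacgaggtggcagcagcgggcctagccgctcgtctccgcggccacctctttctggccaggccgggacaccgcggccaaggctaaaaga
ENSG00000258878 (IFNγ-only, chr14:65229697-65229897): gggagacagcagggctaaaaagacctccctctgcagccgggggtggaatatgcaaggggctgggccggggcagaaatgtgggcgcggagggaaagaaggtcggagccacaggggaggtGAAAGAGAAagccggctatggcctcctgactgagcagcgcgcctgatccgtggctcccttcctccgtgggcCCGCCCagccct
IL17REL (IFNγ-only, chr22:50017051-50017251): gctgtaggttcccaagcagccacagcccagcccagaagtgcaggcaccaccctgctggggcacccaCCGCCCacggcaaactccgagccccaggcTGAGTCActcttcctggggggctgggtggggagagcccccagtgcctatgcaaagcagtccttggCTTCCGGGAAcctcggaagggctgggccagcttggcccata
SEC31B (WT-only, chr10:100482637-100482837): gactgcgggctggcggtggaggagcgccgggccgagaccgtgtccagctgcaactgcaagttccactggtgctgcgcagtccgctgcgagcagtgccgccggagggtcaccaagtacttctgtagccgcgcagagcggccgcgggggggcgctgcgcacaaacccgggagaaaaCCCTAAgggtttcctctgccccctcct
PTGIS (gained in both KO clones, chr20:49562380-49562580): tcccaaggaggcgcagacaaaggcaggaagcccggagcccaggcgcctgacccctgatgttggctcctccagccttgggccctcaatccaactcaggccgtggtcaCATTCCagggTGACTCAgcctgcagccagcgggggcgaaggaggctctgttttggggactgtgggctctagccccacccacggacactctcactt
SOCS3-DT (near SOCS3, chr17:78365749-78365949): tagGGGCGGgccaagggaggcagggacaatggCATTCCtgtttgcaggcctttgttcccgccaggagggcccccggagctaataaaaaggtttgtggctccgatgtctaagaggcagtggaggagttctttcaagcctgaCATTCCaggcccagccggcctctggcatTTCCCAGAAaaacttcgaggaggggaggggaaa
SOCS3-DT (near SOCS3, chr17:78366369-78366569): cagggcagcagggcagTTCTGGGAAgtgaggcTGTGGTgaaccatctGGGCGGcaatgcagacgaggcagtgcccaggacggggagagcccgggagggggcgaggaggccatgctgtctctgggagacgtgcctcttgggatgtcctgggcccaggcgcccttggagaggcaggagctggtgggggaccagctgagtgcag
The GIP window held 2 AP-1 words, at positions 46 and 128 of the window. The PDGFA-DT window held a TEAD word at position 142, and the LINC01629 window held C/EBP words at 41 and 108 and an SP/KLF word at 150. Among the IFNγ-only windows, that of IL17REL held an AP-1 word at 96 and a GAS word at 162, where an ETS word overlaps it, and that of ENSG00000258878 held an ISRE word at 119. The LAT2 window held none of these words. A match is a description of the letters and does not show that a factor is bound.

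The number of variable distal sites with a peak differed widely between libraries of the same genotype and of the same treatment. Untreated, WT_4 had a peak at 2404 of the 11350 sites, WT_5 at 7903, KO_C5 at 2456 and KO_D2 at 1842. With IFNγ, WT_4 had 2192, WT_5 9576, KO_C5 7372 and KO_D2 5733. Both WT_5 libraries and both KO libraries with IFNγ were thus high, and both WT_4 libraries and both untreated KO libraries were low, so that the high and low libraries cut across genotype and treatment. The lists themselves also differed in length, from 16730 peaks (KO_D2 untreated) to 37533 (WT_5 with IFNγ). Variable distal sites took 23.3% to 27.0% of the peaks in the 4 high libraries and 11.1% to 12.8% in the 4 low ones. When every list was cut to its 16730 strongest peaks and the sites were chosen again, the shares were 15.7% to 16.4% and 8.52% to 11.6%, so the same libraries stayed high. The lists do not give the sequencing depth of each library. The height and p-value of a peak together give its number of fragments at the summit, and the median over variable distal sites ran from 12 (WT_4 with IFNγ) to 26 (KO_D2 with IFNγ), with 14 to 25 in the other libraries. The part of list length and fragment number in the counts below was not tested.

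**Figure D1:**
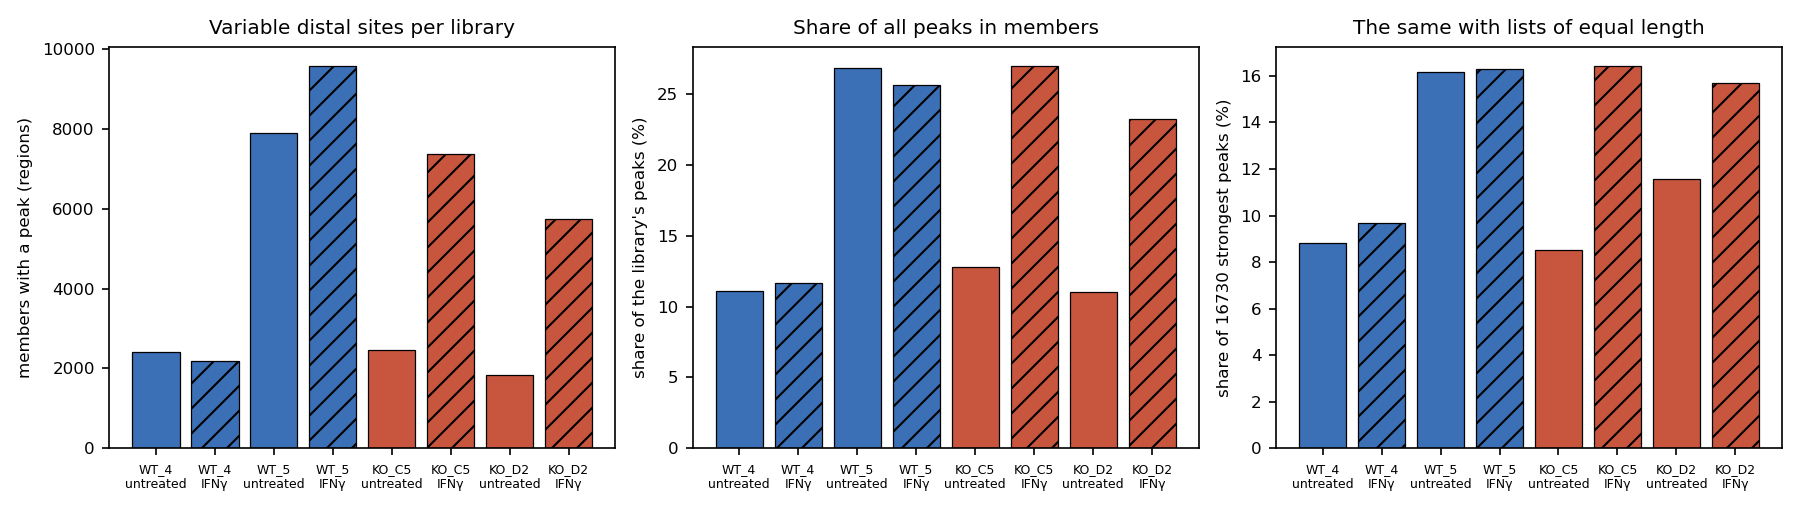
Number of variable distal sites with a peak in each library (left, regions), the share of the library's peaks that lie in them (middle, percent) and that share after every list was cut to 16730 peaks (right, percent). Blue bars are WT and red bars KO clones, and hatching marks IFNγ. Both WT_5 libraries and both KO libraries with IFNγ stand above the other 4 in every panel.

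Most variable distal sites were found in few libraries. Of the 11350, 3980 had a peak in 2 libraries, 2655 in 3, 2033 in 4, 1277 in 5, 799 in 6 and 606 in 7. Of the 246 possible sets of 2 to 7 libraries, 213 occurred. The commonest set was the untreated and IFNγ libraries of WT_5 alone (1198 sites), followed by both WT_5 libraries with both KO IFNγ libraries (1191) and both WT_5 libraries with KO_C5 IFNγ (1118). These 3 sets held 30.9% of the sites, 10.6%, 10.5% and 9.85%, against 8.70%, 9.23% and 8.19% of all regions in 2 to 7 lists. Altogether 5815 sites (51.2%) had peaks only in the 4 high libraries, against 42.9% of all regions in 2 to 7 lists. Another 238 (2.10%) had peaks only in the 4 low ones, and the share over all regions was not counted for these. Their commonest set was the 2 WT_4 libraries alone, with 127 sites (1.12%, against 1.54% of all regions in 2 to 7 lists). Sharing followed the same division: WT_5 untreated and WT_5 with IFNγ shared 7016 sites (88.8% of the first and 73.3% of the second), whereas the untreated libraries of the KO clones shared 423 (17.2% of KO_C5 and 22.96% of KO_D2). Over all regions the 2 WT_5 libraries shared 85.6% and 66.7%, so their sharing was near the general one. Every variable distal site has a peak in at least 2 libraries by the rule, so part of any sharing follows from the choice. KO_D2 untreated had 90.6% of its sites in common with WT_5 with IFNγ, but these were 17.4% of the sites of that library.

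**Figure D2:**
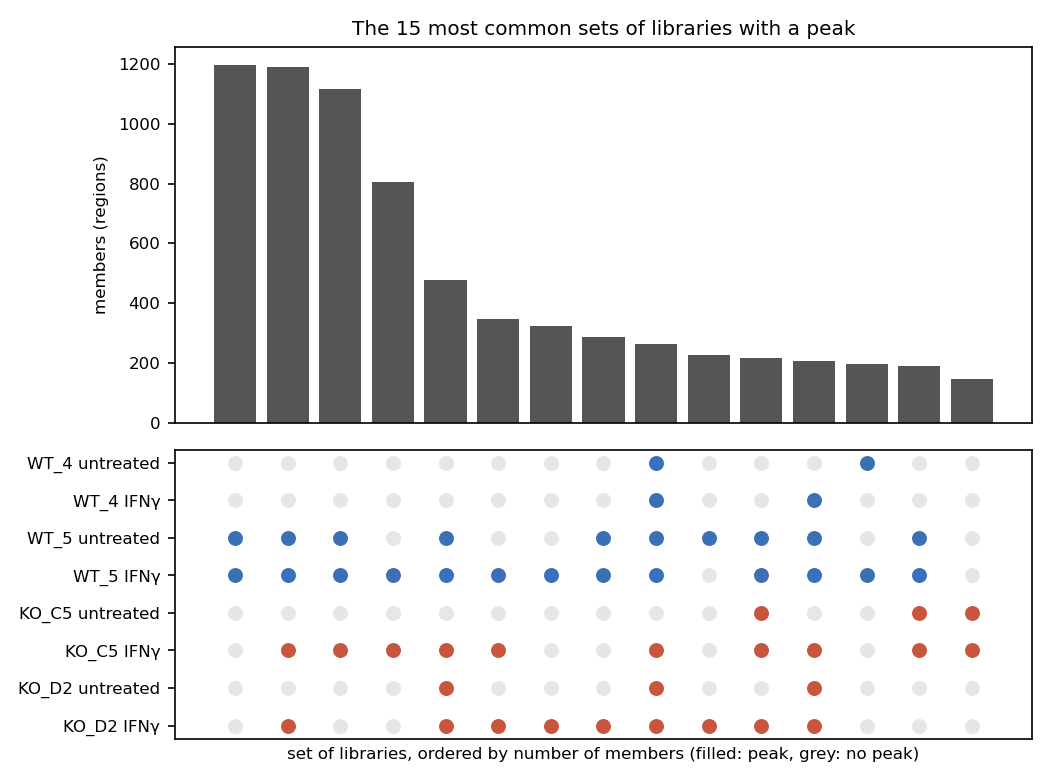
The 15 most common sets of libraries with a peak at a variable distal site: the bars give the number of sites (regions) and the filled circles below each bar the libraries with a peak (blue WT, red KO, grey no peak). The 3 tallest bars, 1198, 1191 and 1118 sites, all include both WT_5 libraries and neither WT_4 library.

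Presence split cleanly by genotype at very few sites. A peak in all 4 WT libraries and no KO library was found at 37 variable distal sites (0.326%), and the same pattern held for 0.528% of all regions in 2 to 7 lists. The reverse, a peak in all 4 KO libraries and no WT library, was found at 1 site, against 0.0296% of those regions. The WT-only site with the second highest mean rank lay in an exon of WNT8B, a Wnt ligand gene, 7283 bp from the start of SEC31B, a gene for a coat protein of secretory vesicles (chr10:100482381-100482888). Its fold enrichment at the summit was 8.25 and 8.17 in untreated WT_4 and WT_5, and 8.79 and 14.1 with IFNγ. Its window held the telomere hexamer at position 175. A WT-only site in an exon of ITPA, which encodes an enzyme that removes deaminated nucleotides (chr20:3218526-3218827), had a fold enrichment of 13.9 and 5.42 untreated and 8.40 and 15.5 with IFNγ in WT_4 and WT_5. The other named WT-only sites lay nearest to the long noncoding RNA genes LINC02463 and LINC02090 and to ENSG00000279942, with fold enrichments of 8.10 to 15.6. Each of these had its highest value in WT_5 with IFNγ. The single KO-only site lay in introns of PHLDB2, which encodes a protein of the cell cortex, and of the overlapping PLCXD2 (chr3:111735244-111735739). Its fold enrichment was 9.03 and 7.22 in untreated KO_C5 and KO_D2, and 5.07 and 3.53 with IFNγ, from 11 to 19 fragments.

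The telomere hexamer that ZBTB48 binds occurred in 2 of the 37 WT-only windows (5.41%) and in 4.45% of the other variable distal sites. With 2 windows the comparison has little weight, and its direction turned when any 1 of 6 libraries was left out (WT_4, WT_5, KO_C5 and KO_D2 with IFNγ, or WT_4 and WT_5 untreated), with differences of −2.11 to −0.218 percentage points. The scrambled hexamer GTGAGT occurred in 5.41% and 17.0%. Over all 11350 sites the hexamer was present in 4.45% of windows, beside 3.44% of constant distal sites and 4.00% of all 52105 regions. The paper also reports ZBTB48 binding to a CIITA promoter sequence without this hexamer, so the word does not stand for all its binding sites.

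Presence by treatment was uneven in the same way. A peak in all 4 IFNγ libraries and no untreated one was found at 43 variable distal sites (0.379%), and held for 0.325% of all regions in 2 to 7 lists. The reverse pattern was found at 0 sites, against 0.00493% of those regions. The site with the highest mean rank lay in an intron of LAT2, an adaptor of immune receptor signalling (chr7:74206597-74206880), with a fold enrichment of 8.35 in WT_4, 13.3 in WT_5, 11.4 in KO_C5 and 7.96 in KO_D2, all with IFNγ. A site 4207 bp from the start of IL17REL, a relative of the interleukin 17 receptors (chr22:50016972-50017404), had 13.1, 15.5, 4.30 and 10.6 in the same order. A site 4444 bp from the pseudogene ENSG00000258878 (chr14:65229569-65230657) had 7.83, 16.6, 5.40 and 6.22. These 3 sites had their highest value in WT_5. GAS words were in 4 of the 43 windows and ISRE words in 3, beside 2 with the shuffled GAS word AAGNNNCTT and 4 with the shuffled ISRE word AAAGNNAAG.

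Gain with IFNγ was counted more often in the KO clones than in the WT clones, in the direction of the library differences described above, and the difference between genotypes was not tested. A peak in both IFNγ libraries and neither untreated library of the KO clones, whatever the WT clones showed, was found at 2157 variable distal sites (19.0%, against 17.3% of all regions in 2 to 7 lists). The matching pattern in the WT clones was found at 241 sites (2.12%, against 1.92%). Loss was rarer: 21 sites lost a peak in both KO clones (0.185%, against 0.409%) and 121 in both WT clones (1.07%, against 1.16%). For the gains, and for the loss in WT clones, the share among variable distal sites was near that among all regions in 2 to 7 lists, so these counts say little about distal sites in particular. With lists of equal length the KO clones gained 550 sites and lost 109, and the WT clones gained 69 and lost 70. Without the WT_4 IFNγ library, the pattern for the WT clones rests on WT_5 and was met by 1967 sites, and without that of KO_D2 the pattern for the KO clones was met by 4344. The count of IFNγ-only sites rose from 43 to 390 without WT_4 with IFNγ and to 165 without WT_5 untreated, and the WT-only count rose from 37 to 113 without WT_4 with IFNγ.

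The strongest sites gained in both KO clones were already open in untreated WT_5. At an intronic site 5391 bp from the start of PTGIS, which encodes prostacyclin synthase (chr20:49562236-49562725), the fold enrichment was 17.4 in WT_5 untreated, 32.6 in WT_5 with IFNγ, 20.5 in KO_C5 with IFNγ and 10.8 in KO_D2 with IFNγ, with no peak in either WT_4 library. The same 4 libraries, and no others, had a peak at the sites nearest to ENSG00000235862, LINC01754, LL22NC01-81G9.3 and CRACDL, where fold enrichments ran from 9.36 to 36.7. The strongest sites gained in both WT clones were in turn mostly open in untreated KO cells. A site in an intron of UNC5B, a netrin receptor gene, and nearest to UNC5B-AS1 (chr10:71266282-71266825) had 15.8 in WT_4 and 5.70 in WT_5 with IFNγ, 8.11 in KO_C5 and 19.0 in KO_D2 untreated, and 18.1 and 27.0 in these with IFNγ. Sites in introns of FMNL1, an actin-nucleating formin gene, and MFSD12, a lysosomal transporter gene, had a peak in untreated KO_D2 and in every IFNγ library. The 241 sites gained in both WT clones did not share this as a whole. Of them, 67 had a peak only in the WT IFNγ libraries and 43 only in all 4 IFNγ libraries. A further 28 and 26 had a peak only in the WT IFNγ libraries and that of KO_D2 or KO_C5. None of these had a peak in untreated KO cells.

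Strength was compared by treatment and genotype over the sites with a peak in each library, which were different sites in number and identity from library to library, so the medians do not follow the same sites. The median fold enrichment over the variable distal sites of a library was 7.25, 7.46, 6.98 and 6.99 in untreated WT_4, WT_5, KO_C5 and KO_D2, and 6.74, 9.01, 7.54 and 6.55 with IFNγ. The groups overlapped, and WT_5 with IFNγ was the highest. The mean of these medians was 7.46 ± 1.12 (SD, n = 4 libraries) with IFNγ and 7.17 ± 0.230 (n = 4) without (difference 0.287, exact two-sided permutation test over 70 assignments, p = 0.771, adjusted p = 0.926 over 6 tests). Over clones it was 7.62 ± 0.878 (SD, n = 2) for WT and 7.01 ± 0.346 (n = 2) for KO (exact permutation p = 0.667, adjusted p = 0.926). With 2 clones per genotype the smallest possible p is 0.333, so no difference by genotype could pass, and with 4 libraries per treatment it is 0.0286. The tests by treatment did not pair the libraries of a clone, so differences between clones are part of their spread. A paired form is given below under other settings, and it has too few assignments to pass. The median percentile of the −log10 p of these sites was 32.8 ± 8.77 (SD, n = 4) with IFNγ and 27.8 ± 6.63 (n = 4) without (exact permutation p = 0.429, adjusted p = 0.926), and 33.0 ± 9.96 (n = 2) for WT and 27.6 ± 1.93 (n = 2) for KO clones (exact permutation p = 1, adjusted p = 1). Whether a peak is listed depends on a threshold on q, which is computed from p, and listing chose the sites. These percentiles are therefore not independent of the choice, and no conclusion is drawn from tests on them. Peak width differed by 6.25 bp between IFNγ and untreated libraries (290.5 ± 14.5 and 284 ± 16.7 bp, SD, n = 4 each, exact permutation p = 0.629) and by 9.25 bp between WT and KO clones (292 ± 5.66 and 283 ± 11.7 bp, n = 2 each, exact permutation p = 0.667), both with an adjusted p of 0.926. Without WT_5 with IFNγ the difference in fold enrichment by treatment turned to −0.236. With lists of equal length it was 2.26 by treatment (exact permutation p = 0.457) and 2.81 by genotype (exact permutation p = 0.667). Constant distal sites were higher in every library, with median fold enrichments of 12.5 to 26.8. They were chosen for passing the caller's threshold in all 8 lists, so this order in part follows from the choice.

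**Figure D3:**
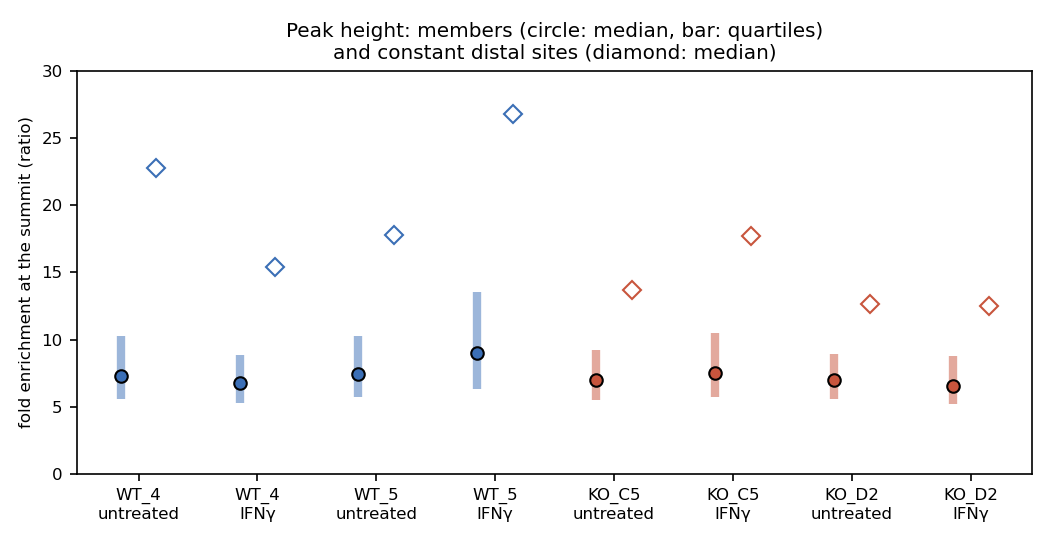
Fold enrichment at the summit (ratio to the local background) in each library. Circles give the median and bars the quartiles over variable distal sites, and diamonds give the median over constant distal sites (blue WT, red KO). The medians of variable distal sites lie between 6.55 and 9.01, below those of constant sites (12.5 to 26.8) in every library.

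Within clones, the values at sites with a peak in both libraries differed in size and sign. In WT_5 (7016 such sites) the median log2 ratio of fold enrichment, IFNγ over untreated, was 0.40, and in KO_D2 (1607) it was 0.29. In KO_C5 (1713) it was 0.04, and in WT_4 (1056) −0.20. The percentile rank rose by a median of 9.30 points in WT_5, 23.9 in KO_D2 and 2.34 in KO_C5, and fell by 6.46 in WT_4. A rank also moves with the length of its list, which grew with IFNγ in WT_5, KO_D2 and KO_C5 and shrank in WT_4, so a change in rank cannot be told apart from a change in list length. At the constant distal sites of the same libraries the median rank changed by 5.66, 11.1, 6.25 and −5.27 points, the same sign in each clone. Their median log2 ratio of fold enrichment was 0.54 in WT_5, −0.03 in KO_D2, 0.17 in KO_C5 and −0.52 in WT_4. In KO_D2 this sign was opposite to that at variable distal sites, and in the other clones the constant sites moved farther.

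Variable distal sites differed in sequence from constant ones. The median GC content of their 201 bp windows was 57.2%, against 69.7% for constant distal sites, 64.2% for variable sites within 1 kb of a start site and 48.8% for those over 50 kb away. Their ratio of observed to expected CpG was 0.361 at the median, against 0.767 for constant distal sites, and they were shorter (368 against 618 bp). The word of AP-1 was found in 31.5% of variable distal sites, 17.4% of constant distal sites, 11.7% of variable sites within 1 kb and 16.8% of all regions. Its shuffled form TCANTGA was found in 4.86%, 1.81%, 2.66% and 3.57%. Words of TEAD (18.1% against 12.3% of constant distal sites) and RUNX (21.6% against 8.94%) were also more frequent, and all regions had 12.01% and 14.2%. The SP/KLF word, a GC-rich word of promoters, was in 21.5% of variable and 59.2% of constant distal sites (37.2% of all regions). The 12-letter CTCF motif was in 5.89% of variable and 7.82% of constant distal sites, against 3.07% of all regions.

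The shares were also compared at like base composition, where few constant sites remained. Among windows of 55 to 65% GC (4894 variable and 182 constant distal sites), the AP-1 word was in 29.2% of variable and 31.3% of constant distal sites, so the order reversed, with a 95% interval of −8.94 to 4.78 percentage points for the difference (normal approximation, counting error over windows only), and TEAD was in 17.7% and 17.0%. RUNX was in 19.1% of variable and 12.6% of constant sites, and its shuffled form GTTGTG in 6.64% and 3.30%. SP/KLF stayed less frequent in variable sites (22.9% against 38.5%). CTCF was in 8.17% and 5.49%, with a 95% interval of −0.720 to 6.08 percentage points for the difference. Variable sites within 1 kb of a start site had the AP-1 word in 15.1% of windows in this band. GAS and ISRE words were in 4.80% and 5.06% of all variable distal sites, close to their shuffled forms (4.26% and 3.69%) and to the shares over all regions (4.56% and 4.68%). Sites gained in both KO clones had them in 5.10% and 5.61%, against 4.73% and 4.93% of the other variable distal sites. The 241 sites gained in both WT clones had GAS words in 9.13% (others 4.71%) and the shuffled GAS word in 4.15%. They had ISRE words in 11.6% (others 4.91%) and the shuffled ISRE word in 8.71%.

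**Figure D4:**
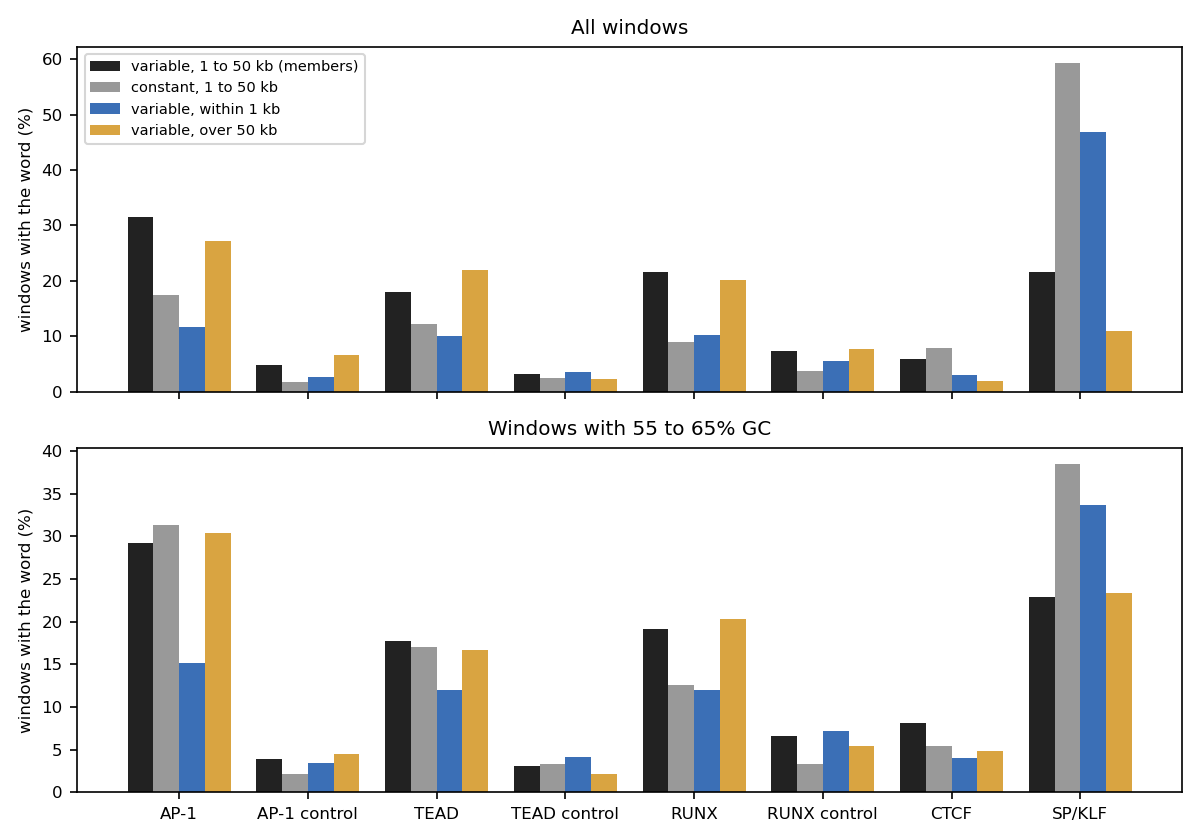
Share of 201 bp windows with each word (percent) in variable distal sites (black), constant distal sites (grey), variable sites within 1 kb of a start site (blue) and variable sites over 50 kb away (yellow), over all windows (top) and windows of 55 to 65% GC (bottom). Control bars are shuffled words of the same letters. The AP-1 bar of variable distal sites (31.5%) is above that of constant ones (17.4%) in the top panel and below it in the bottom panel (29.2% and 31.3%).

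The AP-1 word was most frequent at sites of middling breadth. It was in 26.7% of sites with a peak in 2 libraries, 32.2% in 3, 34.6% in 4, 39.5% in 5, 34.8% in 6 and 28.5% in 7. Its shuffled form ranged from 3.47% to 5.31% over the same classes. Within the band of 55 to 65% GC the shares were 19.8%, 27.6%, 34.5%, 42.6%, 41.6% and 29.4%. SP/KLF rose with breadth from 17.5% to 39.3%, as did the median GC, from 55.7% to 63.4%. The highest fold enrichment of a site over its libraries had a median of 6.98 at 2 libraries and 20.2 at 7, a rise that in part follows from taking the highest of more values. CTCF was in 5.10% to 7.92% of sites, highest at 7 libraries, but within 55 to 65% GC it was lowest there (5.08%, against 7.03% to 10.2% in the other classes). Sites with the CTCF motif were stronger than the others in 7 of 8 libraries, for example 11.1 against 8.78 in WT_5 with IFNγ and 11.6 against 7.13 in untreated WT_4, and weaker in untreated KO_C5 (6.51 against 6.98, with 46 sites that held the motif). This was not particular to CTCF. Sites with the SP/KLF word were stronger in all 8 libraries, for example 10.2 against 8.59 in WT_5 with IFNγ. Strength was not compared at like GC.

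Libraries did not sample the same kinds of sites. The median GC of variable distal sites with a peak was 49.3% in untreated KO_C5 and 65.2% in untreated WT_4, and between 57.2% and 60.7% in the other 6. In untreated KO_C5, 54.6% of the sites were under 50% GC, against 10.2% to 27.4% in the others. The AP-1 word was in 40.6% and RUNX in 31.8% of the KO_C5 sites but CTCF in only 1.87%. In untreated WT_4 the AP-1 word was in 21.0% and SP/KLF in 36.9%. The CTCF share in the other 7 libraries was 5.37% to 7.38%. Within 55 to 65% GC the CTCF share in untreated KO_C5 was 2.24% and in the others 5.71% to 8.99%, and the AP-1 share was lowest in untreated WT_4 (17.1%). In that band untreated KO_C5 (36.2%) was not the highest in AP-1, since KO_D2 had 42.4% untreated and 37.6% with IFNγ. The IFNγ library of the same clone, KO_C5, had a median GC of 57.7% and the CTCF motif at 6.02% of its sites.

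**Figure D5:**
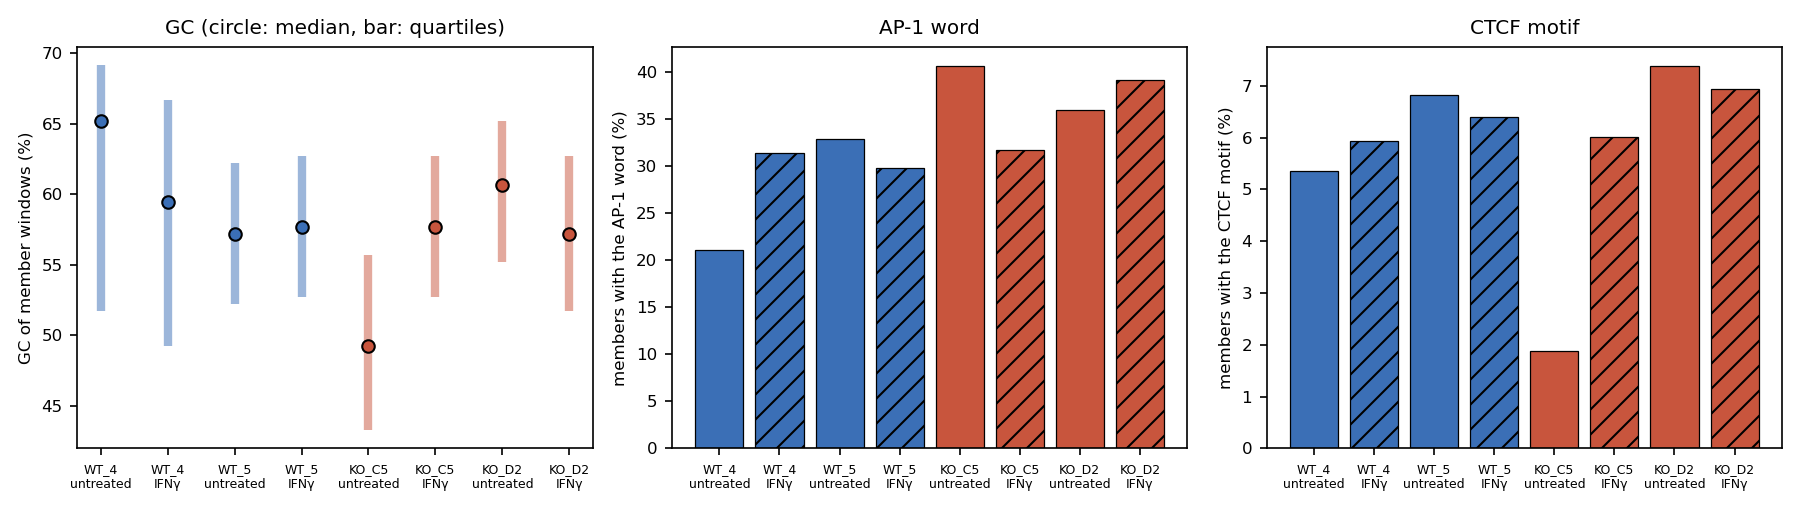
GC content of the 201 bp windows of variable distal sites with a peak in each library (left, percent, circles are medians and bars quartiles), and the share of these sites with the AP-1 word (middle, percent) and the CTCF motif (right, percent). Blue is WT, red KO, and hatching IFNγ. Untreated KO_C5 is lowest in GC (49.3%) and CTCF (1.87%) and highest in AP-1 (40.6%), and untreated WT_4 is highest in GC (65.2%).

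More of the variable distal sites lay inside genes than between them: 53.0% had their centre in an intron, 7.38% in an exon and 39.6% between genes. Of constant distal sites 51.7% lay between genes. The median distance to a start site was 8002 bp, with 35.4% between 1 and 5 kb, 21.8% between 5 and 10 kb, 22.5% between 10 and 20 kb and 20.3% between 20 and 50 kb. AP-1 words were in 28.1% of the nearest and 35.7% of the farthest of these classes. The nearest gene was protein-coding at 51.4%, a long noncoding RNA at 28.7% and a pseudogene at 12.3%. A protein-coding start site lay within 50 kb of 8970 sites (79.0%), and these were nearest to 5189 genes, 26.0% of the 19962 protein-coding genes annotated. For 3282 of the genes there was 1 site, 222 had 5 or more and 23 had 10 or more.

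Among the genes with most sites were MAD1L1, a spindle checkpoint gene (25 sites), GSE1 (23), PRKAR1B, a regulatory subunit of protein kinase A, and RASA3, a GTPase-activating protein (13 each). They were followed by ADGRB1, an adhesion receptor, NFIC, a nuclear factor I gene, and SMAD3, which carries TGFβ signals into the nucleus (12 each). CMIP and MICALL2 had 11, as did PRKCH, RBFOX3, RMI2, SEPTIN9 and UNCX. These genes differed in the libraries that held their sites. At GSE1, 21 of 23 sites had a peak in each WT_5 library, 16 in KO_C5 with IFNγ and 1 to 5 in the other 5 libraries. SMAD3 was like it, with 10 and 12 of 12 sites in WT_5, 11 and 8 in the KO clones with IFNγ, and 2 to 4 elsewhere. At MAD1L1, by contrast, untreated WT_4 had 15 of 25 sites, untreated WT_5 had 11 and untreated KO_C5 had 0. WT_5 with IFNγ had the most there, 18.

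Neighbouring sites often came in groups. Joining sites with gaps of up to 12500 bp placed 3969 of them (35.0%) in 1595 groups of 2 or more, of which 75 held 5 or more. The group with most sites, 13 in 59.8 kb at MICALL2 and INTS1 (chr7:1430061-1489826), had a peak at 11 sites in untreated WT_4, 10 in WT_4 with IFNγ, 6 and 8 in WT_5, 2 and 4 in KO_D2, and 0 in both libraries of KO_C5. The next, 11 sites around UNCX, a homeobox gene (chr7:1224310-1275591), had 8 and 8 in WT_4, 1 and 8 in WT_5, 2 and 6 in KO_D2 and 0 in KO_C5. Groups at ADAP1 (chr7:895379-937103) and PLEC, the gene of the cytoskeletal linker plectin (chr8:143916082-143930475), were also without a peak in KO_C5, and PLEC in KO_D2 as well. Median GC in these 4 groups was 65.7% to 69.7%. The first 3 Mb of chromosome 7, chosen after these groups were seen, held 195 variable distal sites. Untreated, 124 of these had a peak in WT_4, 87 in WT_5, 5 in KO_C5 and 48 in KO_D2, and with IFNγ 110, 127, 42 and 103. The other regions of this stretch, apart from those in all 8 lists, had the same order untreated (156, 69, 2 and 24). With IFNγ they had 104, 144, 20 and 68. At the 35 regions in all 8 lists the median fold enrichment was 71.7, 32.7, 21.9 and 25.7 untreated. With IFNγ it was 48.7, 47.1, 19.9 and 21.3. The order was thus not particular to variable distal sites, and its cause was not tested. Other groups followed the 4 high libraries: the 9 sites at CYTH4 (chr22:37303823-37346487) had 5 and 9 in WT_5, 9 in KO_C5 and 7 in KO_D2 with IFNγ, and 0 or 1 in the others. Over the genome there were 3.74 sites per Mb, from 0.961 on chromosome X to 9.98 on chromosome 19.

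Among the genes of the interferon response, 17 of 69 were the nearest protein-coding gene of a variable distal site, with 26 sites in all. This was 0.377 sites per gene, against 0.449 over all protein-coding genes, of which 26.0% had a site. A peak in at least 2 IFNγ libraries and in no untreated library was found at 8 of the 26 (30.8%), against 16.5% of all variable distal sites and 13.7% of regions in 2 to 7 lists. The reverse was found at 0 of 26, against 2.13% and 2.18%. These counts are small. The same pattern was found at 4 of 13 sites of B cell genes, the same share, and at 6 of 22 sites of AP-1 genes. By clone, the number of these sites with a peak went from 16 untreated to 24 with IFNγ in WT_5, from 5 to 18 in KO_C5 and from 2 to 14 in KO_D2, and from 6 to 4 in WT_4. A gain in both KO clones was seen at 9 sites (34.6%, beside 19.0% of all variable distal sites and 17.3% of regions in 2 to 7 lists). This count became 0 with lists of equal length and 4 when the nearest gene of any type was used.

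The interferon gene with most sites was SOCS3, which encodes an inhibitor of JAK kinases and is itself induced by cytokine signalling. It had 5 sites within 30321 bp of its start, and all 5 had a peak in WT_5 and KO_C5 with IFNγ, while untreated WT_5 and KO_D2 with IFNγ had a peak at 1 each and the other 4 libraries at none. In the pair with a GAS word, which are intronic and nearest to the divergent transcript SOCS3-DT, 5526 and 6236 bp from the SOCS3 start, the fold enrichment was 9.02 and 5.63 in WT_5 with IFNγ and 5.82 and 5.13 in KO_C5 with IFNγ. The remaining 3 sites reached 4.54 to 10.4 in WT_5 and 3.44 to 6.38 in KO_C5 with IFNγ. The GAS words are at positions 169 and 17 of the windows printed above. SOCS1, a related inhibitor, had 1 site 2571 bp from its start (chr16:11258775-11259508), with 7.15 in WT_5, 3.28 in KO_C5 and 2.80 in KO_D2 with IFNγ and no peak elsewhere. WT_4 had no peak at any of these sites.

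CIITA, the master regulator of MHC class II genes and the gene on which the study centres, had 3 sites, none with a peak in WT_4. The site 22902 bp away (chr16:10843059-10843320), whose window held an ISRE word and a telomere hexamer, had 6.10 in WT_5 and 6.61 in KO_D2 with IFNγ and no peak elsewhere. The site 3387 bp from the nearest CIITA start (chr16:10862512-10862835) had 6.41 in WT_5 and 7.96 in KO_C5 untreated and 10.5 in KO_D2 with IFNγ. The intronic site 4867 bp from a start (chr16:10871127-10871932) had 4.65 in untreated WT_5, and 6.96, 8.83 and 4.93 in WT_5, KO_C5 and KO_D2 with IFNγ. Every CIITA site had a peak in both genotypes. Regions within 1 kb of a start site were left out by the rule, so the CIITA promoters are not among these 3 sites. The paper reports chromatin open in WT but not KO cells at the B-cell-specific CIITA promoter, and these sites do not bear on that.

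IFNGR2, the second chain of the IFNγ receptor, had 3 sites, one of them among the strongest of the list: at 22466 bp (chr21:33380553-33380947) the fold enrichment was 24.6 in WT_5, 6.88 in KO_C5 and 11.3 in KO_D2 untreated and 37.3, 30.2 and 18.8 with IFNγ, with no peak in WT_4. IRF1, the factor that binds the ISRE, had an intronic site 1206 bp from its start (chr5:132497673-132498033), with 6.999 in untreated WT_5 and 13.5, 6.97 and 6.18 in WT_5, KO_C5 and KO_D2 with IFNγ. At GBP5, a guanylate-binding protein gene, the site 38876 bp away (chr1:89311736-89312156) had a peak in all 4 IFNγ libraries and no untreated one: 3.48 in WT_4, 6.47 in WT_5, 7.85 in KO_C5 and 8.66 in KO_D2. HLA-E had 2 sites, and HLA-F, IFI35, IFI6, IFIT2, LAP3, NLRC5, PARP14, PSMB9 and XAF1 were among the genes with 1.

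Genes of the AP-1 family had 22 sites at 12 of 16 genes. ATF3, JUND, MAF and MAFK had 3 each. The 3 JUND sites had a peak in WT_5 and KO_C5 with IFNγ, of 5.09 to 11.5 and 3.75 to 6.06, and in untreated WT_5 at 1 site. JUN had 2, one of which, 2019 bp from its start (chr1:58781721-58782028), had a peak in every library but WT_4 with IFNγ, with fold enrichments of 10.3 to 15.7. Targets and partners of YAP and TEAD had 27 sites at 14 of 25 genes, and each of them had a peak in WT_5 with IFNγ, where 84.4% of all variable distal sites had one, while 2 had a peak in untreated WT_4, where 21.2% of all sites had one. CCN1, a matricellular gene that YAP induces, had 4. The strongest of these, 25587 bp away (chr1:85607050-85607733) with TEAD and RUNX words, had 32.8, 8.97 and 5.86 in untreated WT_5, KO_C5 and KO_D2, and 3.77, 36.4, 22.4 and 14.3 in WT_4, WT_5, KO_C5 and KO_D2 with IFNγ. TEAD3 had 3 sites, all in WT_5 untreated and in WT_5 and KO_C5 with IFNγ.

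Osteoblast and mesenchyme genes had 26 sites at 13 of 24 genes. The AP-1 word was in 46.2% of these windows, beside 31.5% of all variable distal sites. The share in the other lists ran from 0% (liver) to 41.8% (actin and adhesion). Of the osteoblast windows with the word, 5 were at TNFRSF11B. The TNFRSF11B gene, which encodes osteoprotegerin, had 6: 5 had a peak in untreated KO_C5 and all 6 in KO_C5 with IFNγ, while untreated WT_4, WT_5 and KO_D2 had a peak at 0. With IFNγ, WT_4 had a peak at 3 of the 6, WT_5 at 2 and KO_D2 at 1. RUNX2, the regulator of bone formation, had 3 sites, all with a peak in untreated KO_C5 (4.07 to 13.3) and in no other untreated library. Untreated KO_C5 was the library with the lowest GC, given above. COL1A1, a collagen I gene, had 3, the strongest 8715 bp away (chr17:50210347-50211225) with 11.6 and 5.01 in untreated WT_5 and KO_D2 and 32.5, 9.48 and 6.99 in WT_5, KO_C5 and KO_D2 with IFNγ. Matrix genes had 57 sites at 20 of 30 genes, led by the laminin gene LAMA5 (7 sites, all in WT_5 and KO_C5 with IFNγ, 1 in untreated KO_C5) and the collagen genes COL4A2, COL5A1 and COL6A3 (5 each). Genes of actin and adhesion had 55 sites at 21 of 32, with 5 each at the α-actinin genes ACTN1 and ACTN4 and the integrin gene ITGB5. All 5 ACTN1 sites had a peak in both WT_5 libraries and in KO_C5 with IFNγ, and 4 in KO_D2 with IFNγ. Of the lists for other cell types, B cell genes had 13 sites at 6 of 16 genes (IKZF1 and POU2AF1, 3 each), neuronal genes 14 at 4 of 10 (11 of them at RBFOX3) and liver genes 2 at 2 of 10. Over all protein-coding genes 26.0% had a site, with 0.449 sites per gene. The AP-1 list had 1.38 per gene, YAP and TEAD 1.08, osteoblast 1.08, matrix 1.90 and actin 1.72. The lists of other cell types had 0.813 (B cell), 1.40 (neuronal) and 0.200 (liver). A gain in both KO clones was seen at 4 of 22 AP-1, 3 of 27 YAP and TEAD, 2 of 26 osteoblast, 14 of 57 matrix, 14 of 55 actin, 7 of 13 B cell, 4 of 14 neuronal and 1 of 2 liver sites. The same gain held for 19.0% of all variable distal sites and 17.3% of all regions in 2 to 7 lists. The lists of cell types foreign to U2OS thus had shares on both sides of that of the interferon list.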

How the data were processed

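FAIRE-seq was measured in 8 libraries of 4 U2OS clones. Per the labels and the study's methods, the authors trimmed reads with Trimmomatic, aligned them to GRCh38 with Bowtie2 2.2.5, removed low-quality alignments with SAMtools 1.14 and called peaks in each library with MACS2 2.2.7.1. The study's methods state that input DNA was sequenced as well. Whether it was used as a control in the peak calls, and whether duplicates were removed, is not given in the sources used here. The deposited lists give each peak's fold enrichment, a ratio to the local background at the summit. They also give −log10 p and −log10 q as deposited by the authors, with a lowest −log10 q of 1.30.

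The 195897 peaks on chromosomes 1 to 22 and X were joined in Python 3.11.15 and compared with start sites of GENCODE 44. Members and gene lists were chosen with earlier results of these data known. Presence of a peak chose the members, so patterns of presence are described without a test. Tests were two-sided exact permutation tests on 1 median per library (treatment) or clone (genotype), adjusted by Benjamini-Hochberg over 6. Clone names in the labels pair the libraries of a clone. Across genotypes nothing but the replicate number links clones. Nothing in the labels says that a clone was cultured more than once. Words were counted on both strands, 100 bp either side of the mean summit, without a test. Genes named are those of the strongest 5 sites of each pattern by mean rank, the 10 genes with most sites, and the leading genes of each list, a few of which are not reported here. Steps were tested on simulated lists: 200 of 200 planted patterns were recovered among 6000 simulated regions. The study's methods give a range of reads per sample but no value for a single library. The depth of each library is not in the lists either, so no depth-based intervals are given.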

Additional observations from a re-analysis of the deposited data

Results flagged for a closer look

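In 60 groups of 4 libraries (15 measures of the variable distal sites in the IFNγ, untreated, WT and KO libraries), 4 values, from 3 libraries, lay far enough from the other 3 of their group to be singled out by Dixon's criterion, which chance alone meets in about 1 group in 20. Untreated WT_5 had a peak at 7903 sites, whereas the next untreated library had 2456. Its share of peaks in variable distal sites was 26.8%, and the next was 12.8%. The median peak width in untreated KO_D2 was 262 bp, whereas the next lowest KO library had 287 bp. WT_4 with IFNγ had the SP/KLF word at 29.0% of its sites, and the next IFNγ library had 22.9%. The cause of these differences was not tested.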

How the results depend on the processing

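Of 366 values recomputed for 23 results under other settings, 62 counts or shares moved and 17 values turned their direction. The other 287 kept their direction and their side of the threshold, or stayed near the main value, though the size of a tested difference could change. The genotype tests and the blocked tests could not pass at any setting, since they have too few assignments. Pairing the libraries of each clone (replicate block) left the IFNγ differences at 0.287 in fold enrichment (exact sign-flip p = 0.625), 5.00 in percentile (p = 0.25) and 6.25 bp in width (p = 0.875), and blocking WT and KO by replicate number gave 0.602, 5.36 and 9.25 bp (exact p = 1 for each).
With lists of equal length there were 4577 members, with 7 WT-only, 8 KO-only, 15 IFNγ-only and 1 untreated-only. The KO clones then gained 550 and lost 109, the WT clones gained 69 and lost 70, and 0 interferon-list members were gained in both KO clones. The IFNγ differences were then 2.26 in fold enrichment, 11.5 in percentile and 25.9 bp in width, and the genotype differences 2.81, 8.55 and 21.9 bp. The AP-1 difference (members minus constant distal sites, in percentage points) was 17.2, the ISRE difference (gained in KO minus other members) −0.0565, and the TTAGGG difference (WT-only minus others) 10.0. In windows of 55 to 65% GC, added after the data were seen, the differences were −2.08 for AP-1, 2.68 for CTCF, 6.49 for RUNX, 0.703 for TEAD and −4.50 for TTAGGG. KO-only members numbered 0 with −log10 q of at least 3 and 0 with fold enrichment of at least 4 (TTAGGG −0.460 and −1.28), 2 with summit intervals (33 lost in KO clones) and 3 with limits of 2 and 100 kb. The RUNX difference was 17.2 in wider windows, the TEAD difference 7.87 with protein-coding start sites, and 4 interferon-list members were gained in KO clones by the nearest gene of any type.
Leaving out 1 library at a time changed the rule to fewer lists. AP-1 ran from 12.4 to 17.2 (highest without WT_5 with IFNγ), GAS from −0.247 (without KO_D2 with IFNγ) to 0.744, ISRE from −0.341 (without untreated KO_D2) to 1.97 (without KO_C5 with IFNγ) and TTAGGG from −2.11 (without untreated WT_5) to 2.73. IFNγ-only members ran from 53 to 390 and WT-only from 42 to 113, both highest without WT_4 with IFNγ. KO-only ran from 2 to 26, untreated-only from 0 to 9, and losses in KO clones from 21 to 506, each highest without untreated KO_D2. Gains in KO clones ran from 2159 to 4344 and interferon-list gains from 9 to 15, both highest without KO_D2 with IFNγ, gains in WT clones from 241 to 1967 (without WT_4 with IFNγ) and losses in WT clones from 120 to 827 (without WT_5 with IFNγ). The fold enrichment difference by IFNγ ran from −0.236 (without WT_5 with IFNγ) to 0.592 and the width difference from −0.750 bp (without untreated KO_D2) to 12.4 bp. The main limits are the 2 clones per genotype, the depth of each single library, which is not given, and the threshold behind each call.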
